A study of Mus musculus with 59 samples.

Results

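The sites described here are positions in mouse embryonic stem cells (ESCs) where SMARCA5 was mapped, where no CTCF peak was listed in wild-type cells, and where a CTCF peak was listed once Smarca5 had been knocked out. They are called gained sites below. Members were chosen by their presence in 3 peak lists: a SMARCA5 peak was taken when it overlapped no wild-type CTCF peak and shared at least 1 bp with a peak in the knockout CTCF list. Their presence in these lists is thus no finding. The rule held for 3107 of the 46965 SMARCA5 peaks. The other SMARCA5 peaks comprised 40418 with wild-type CTCF and 3440 with CTCF in neither ESC list, and a further 5684 CTCF peaks were in the knockout list only and carried no SMARCA5. These 3 classes serve as comparisons.

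CTCF is a zinc-finger protein that binds a long, GC-rich DNA motif, anchors chromatin loops together with cohesin and insulates enhancers from promoters. SMARCA5 (also known as SNF2H) is the ATPase of the ISWI family of chromatin remodellers. It slides nucleosomes into regular arrays and is known for clearing and phasing nucleosomes around CTCF sites, and its partner subunits, such as RSF1 and the histone-fold protein POLE3, define separate remodelling complexes. CTCF is best known at distal insulators, but it also binds many CpG-rich gene starts.

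All ESCs were of the E14Tg2a line, grown with LIF and inhibitors of MEK and GSK3. CTCF was precipitated with an antibody in 1 wild-type and 1 Smarca5 knockout sample, the latter made with paired guides for a Cas9 nickase that cut an early exon of the gene. SMARCA5 was mapped in 2 samples through a Flag-biotin tagged protein that was overexpressed together with the biotin ligase BirA in picked single clones, so its peaks are those of an overexpressed protein in cells that keep their own Smarca5. A further 13 CTCF lists came from mouse embryonic fibroblasts (MEFs) under reprogramming by OSKM, the factors Oct4, Sox2, Klf4 and c-Myc. Of these, 3 were from day 10 after retroviral OSKM: OSKM alone (2 samples), OSKM with added Ctcf (2 samples) and OSKM with added Ctcf and an shRNA against Smarca5 (1 sample). The other 10 were from the experiment with inducible lentiviral OSKM, in 5 populations, each with an shRNA against luciferase (shLuc, the control) or against Ctcf (shCtcf). They were day 0 cells (2 samples a list), Thy1+ cells of days 3 and 9 (2), SSEA1- Thy1- cells of days 6 and 9 (2), SSEA1+ cells of days 6 and 9 (2) and day 12 Oct4-GFP+ cells (3). Thy1 marks fibroblasts, SSEA1 marks cells that have begun to reprogram, and the Oct4-GFP reporter marks cells near pluripotency.

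Each group had 1 deposited list of 400 bp intervals, with no peak height, and the lists held from 23600 peaks (day 0 shCtcf) to 89567 (knockout ESCs). No difference between lists therefore has a replicate check, read depth is not known here, and the 95% Wilson intervals given in brackets cover counting error only. Peak lists measure no RNA, so neither the loss of Smarca5 nor the identity of the sorted cells could be checked in them. The labels of the day 3 Thy1+ samples contradict each other on which received the Ctcf shRNA, and the Thy1+ lists were used as their titles group them. Every value from them carries that limit.

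Some of the gained sites lie on gene starts, where RefSeq promoter sequence shows their DNA. The lines below print, from the RefSeq promoter table of GRCm38.p6, the upstream part of each promoter window that lies inside the gained site, read 5′ to 3′ on the gene's own strand. Capitals mark, on either strand, each match to AG, any 2 bases and GGC, letters found within the known CTCF core, and where these were preceded by CC and any 3 bases the whole match of 12 letters is in capitals. Ywhah and 4931408C20Rik were the gene starts whose gained site was held by the most other CTCF lists, Zswim8 and Adss were others of the 10 highest in that respect, Hoxd9 lies in a Hox cluster, and Pole3 encodes a partner subunit of SMARCA5.

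Ywhah, chr5:33018608-33018815, plus strand: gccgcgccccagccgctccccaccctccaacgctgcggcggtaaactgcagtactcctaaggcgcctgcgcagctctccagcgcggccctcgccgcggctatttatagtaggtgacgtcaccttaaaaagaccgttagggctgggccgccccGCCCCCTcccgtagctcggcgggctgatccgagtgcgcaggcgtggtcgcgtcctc

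4931408C20Rik, chr1:26687461-26687613, minus strand: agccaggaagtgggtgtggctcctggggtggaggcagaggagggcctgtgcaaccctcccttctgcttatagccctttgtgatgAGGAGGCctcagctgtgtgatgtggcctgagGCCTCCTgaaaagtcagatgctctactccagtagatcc

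Zswim8, chr14:20707392-20707551, plus strand: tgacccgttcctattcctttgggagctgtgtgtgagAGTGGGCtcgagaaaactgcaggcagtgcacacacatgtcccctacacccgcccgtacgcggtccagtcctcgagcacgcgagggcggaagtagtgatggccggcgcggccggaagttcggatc

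Adss, chr1:177796510-177796646, minus strand: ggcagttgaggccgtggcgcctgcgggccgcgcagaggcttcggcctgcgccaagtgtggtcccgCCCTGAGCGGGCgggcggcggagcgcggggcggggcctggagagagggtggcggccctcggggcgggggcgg

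Hoxd9, chr2:74697555-74697762, plus strand: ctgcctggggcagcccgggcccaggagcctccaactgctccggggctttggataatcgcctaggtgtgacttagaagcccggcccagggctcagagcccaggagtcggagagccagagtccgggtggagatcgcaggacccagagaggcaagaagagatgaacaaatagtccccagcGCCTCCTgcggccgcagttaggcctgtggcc

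Pole3, chr4:62525015-62525264, minus strand: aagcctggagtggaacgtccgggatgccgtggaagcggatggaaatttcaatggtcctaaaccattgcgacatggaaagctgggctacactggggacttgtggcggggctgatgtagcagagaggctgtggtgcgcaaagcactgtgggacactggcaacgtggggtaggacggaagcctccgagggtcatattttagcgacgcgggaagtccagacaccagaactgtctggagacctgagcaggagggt

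These stretches differed in kind. The Adss stretch was 81.8% G and C with 19 CpG dinucleotides and held the match CCCTGAGCGGGC. The Ywhah stretch was 68.8% G and C with 25 CpGs, and held 1 short match and no wide one. By contrast, 4931408C20Rik had 0 CpGs in 153 bases and 2 short matches that lie close together on opposite strands. The Pole3 stretch held no match in 250 bases. Stretches of Ltbp1, H3f3c, Spg7 and Ssrp1, also among the 10 highest starts but not printed, held no match either. Those of Rcan2 and Casp8ap2, likewise not printed, held 1 short match each. A match is a description of letters and not a bound site, and a missing match says only that these letters are not in this window.

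Over all gained sites, 68 RefSeq promoter windows (250 bases before to 50 after the gene start) lay wholly inside a site. The 12-letter pattern made of CCA, any 2 bases, AG, any 2 bases and GGC, searched on both strands, was in 3 of the 68 (4.41%, 1.51 to 12.2), against 2.43% of all 32851 windows of that length and 13% of the 901 windows inside SMARCA5 sites with wild-type CTCF. The looser pattern of CC, any 3 bases, AG, any 2 bases and GGC, which includes the former, was in 13 of the 68 (19.1%, with a lower bound of 11.5%). It was in 8.61% of all windows, in 33.0% of those with wild-type CTCF and in 12.0% of the 117 windows inside SMARCA5 sites with no CTCF. The 7-letter part, AG, any 2 bases and GGC, contained in both patterns, was in 73.5% of the gained windows and 59.8% of all. In the 117 windows inside SMARCA5 sites with no CTCF, the 7-letter part was in 70.1% and the pattern with CCA in 2.56%. The gained windows had a median GC content of 64.8% and a median CpG observed to expected ratio of 0.81, against 52.7% and 0.38 over all windows. The wild-type CTCF windows, at 63.7% and 0.78, were close to the gained ones in composition, and those of SMARCA5 sites with no CTCF were at 61.3% and 0.88. A high GC and CpG content was thus not particular to gained windows. The part of base composition in the motif shares was not tested.

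The 3 windows with the longer pattern are named here after their values were seen. Sgsm1 held CCAGGAGGCGGC 72 bases before its start, and its site was in 5 other CTCF lists. Slc7a1, which encodes a transporter of cationic amino acids, held CCAGGAGGGGGC 164 bases before its start, and its site was in 4 other lists. Wdr1, an actin-disassembly factor, held CCACAAGAAGGC 240 bases before its start, and its site was in 2.

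The rule itself fixes where gained sites stand in the 3 ESC lists, and the values that follow describe the choice. Of the 6547 SMARCA5 peaks without wild-type CTCF, 47.5% (46.2 to 48.7) held knockout CTCF, and 91% of all SMARCA5 peaks did. When the 6547 positions were moved by 5, 10, 50 or 100 kb in both directions, 5.45%, 5.77%, 5.32% and 4.86% met a knockout CTCF peak. Between 0.466% and 0.710% of the moved positions met a knockout peak without a wild-type peak. Within the ESC lists an overlap was always the whole interval, so no site is a borderline overlap. The gained sites nearest to a wild-type CTCF peak lay 213 bp from it on chromosome 15 (93275629 to 93276028), 300 bp on chromosome 1 (131963498 to 131963897) and 367 bp on chromosome 4 (33248469 to 33248868). The nearest sites on the other side of the rule share their full 400 bp with a wild-type peak. The median gap from a gained site to the nearest wild-type CTCF peak was 5533 bp (quartiles 2318 and 11647), and 349 sites (11.2%) were within 1 kb of one. Gained sites were also far from each other. The median gap was 137070 bp and 5.31% had another gained site within 10 kb, where 46.9% of the far more numerous SMARCA5 sites with wild-type CTCF had one of their own kind. For SMARCA5 sites with no CTCF, a class of similar size, the values were 137286 bp and 6.40%. For knockout-only CTCF peaks without SMARCA5 they were 102826 bp and 6.74%, so this spacing is not particular to gained sites.

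Gained sites lay at gene starts more often than SMARCA5 sites that already carried CTCF. Of the 3021 gained sites that could be set against the promoter table, which has no entries for chromosome 18, 688 (22.8%, 21.3 to 24.3) had their centre within 1 kb of a gene start. The same sites moved by 10 kb gave 3.29%. The share was 14.7% (14.3 to 15.0) for SMARCA5 sites with wild-type CTCF and 33.1% (31.5 to 34.7) for SMARCA5 sites with no CTCF. For knockout-only CTCF peaks without SMARCA5 it was 3.67% (lower bound 3.20%), beside 3.52% when those were moved. Gained sites thus stood between the other SMARCA5 classes, with intervals that overlap neither. Within 200 bp of a start the gained count was 326 (10.8%), beside 0.645% at moved positions. Of the gained sites near a start, 600 (87.2%) were nearest to a protein-coding gene. The share was 83.1% for wild-type CTCF sites, 89.4% for sites with no CTCF and 60.9% for knockout-only peaks without SMARCA5.

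Near gene starts the gained sites sat on the transcribed side. Their centre was a median of 118.5 bp downstream of the start (quartiles 63 bp upstream and 320 bp downstream), and 461 of 688 (67.0%) lay downstream. SMARCA5 sites with wild-type CTCF had a median of 17 bp downstream with 52.8% on that side. SMARCA5 sites with no CTCF, at 126.5 bp and 68.2%, had nearly the same placement as the gained ones. A start on each strand lay within 1 kb of 110 of the 688 gained sites (16.0%), beside 14.8% for wild-type CTCF sites and 20.3% for sites with no CTCF.

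**Figure D1:**
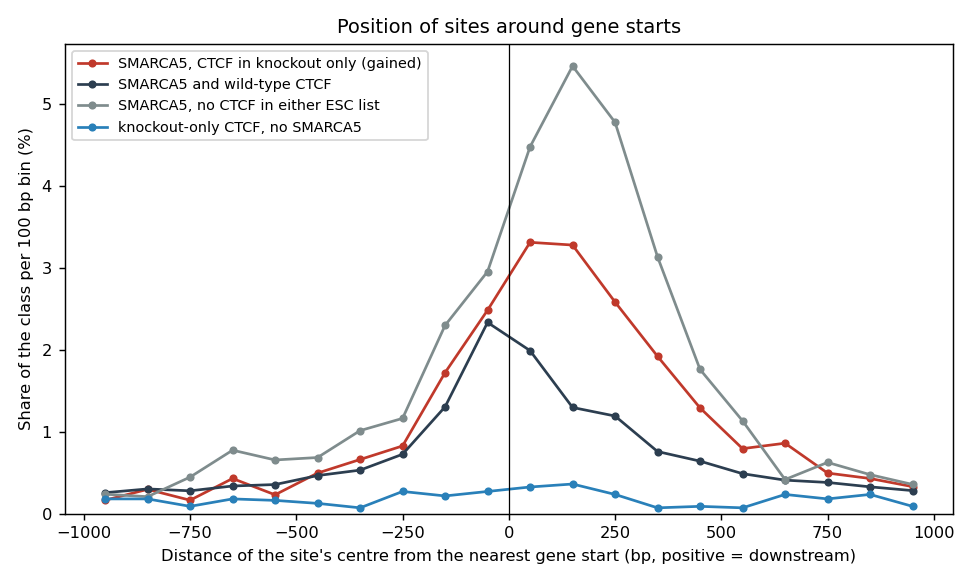
Share of each class of sites (%) per bin of 100 bp, against the distance of the site's centre from the nearest gene start (bp, positive downstream). Gained sites (red) and SMARCA5 sites with no CTCF (grey) peak on the downstream side, wild-type CTCF sites (dark blue) peak at the start, and knockout-only CTCF peaks without SMARCA5 (light blue) stay nearly flat.

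Gained sites were mostly inside genes. Of all 3107, 2000 (64.4%, 62.7 to 66.0) fell within a protein-coding gene's span, against 57.6% at positions moved by 10 kb, 56.5% for SMARCA5 sites with wild-type CTCF and 57.5% for those with no CTCF. Of the 2333 gained sites with no start within 1 kb, 1413 (60.6%, 58.6 to 62.5) were inside such a span, against 54.9% for wild-type CTCF sites, 47.4% for sites with no CTCF and 57.2% (55.9 to 58.6) for knockout-only peaks without SMARCA5, all without a start within 1 kb. Only 343 sites (11%) were over 10 kb from any gene span. Exons, introns and UTRs were not analysed here.

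Most gained sites were held by none of the 13 reprogramming lists. This was so for 2456 of 3107 (79.0%, 77.6 to 80.4), where 22.1% of all SMARCA5 peaks and 13.1% of those with wild-type CTCF were in none. The share was 76.5% for SMARCA5 sites with no CTCF and 88.0% (87.1 to 88.8) for knockout-only CTCF peaks without SMARCA5. Of the 651 gained sites held somewhere, 549 were in 1 to 4 lists, 82 in 5 to 9 and 20 in 10 or more. Lists of 1 experiment share peak positions, so being in several of them is not several independent sightings.

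**Figure D2:**
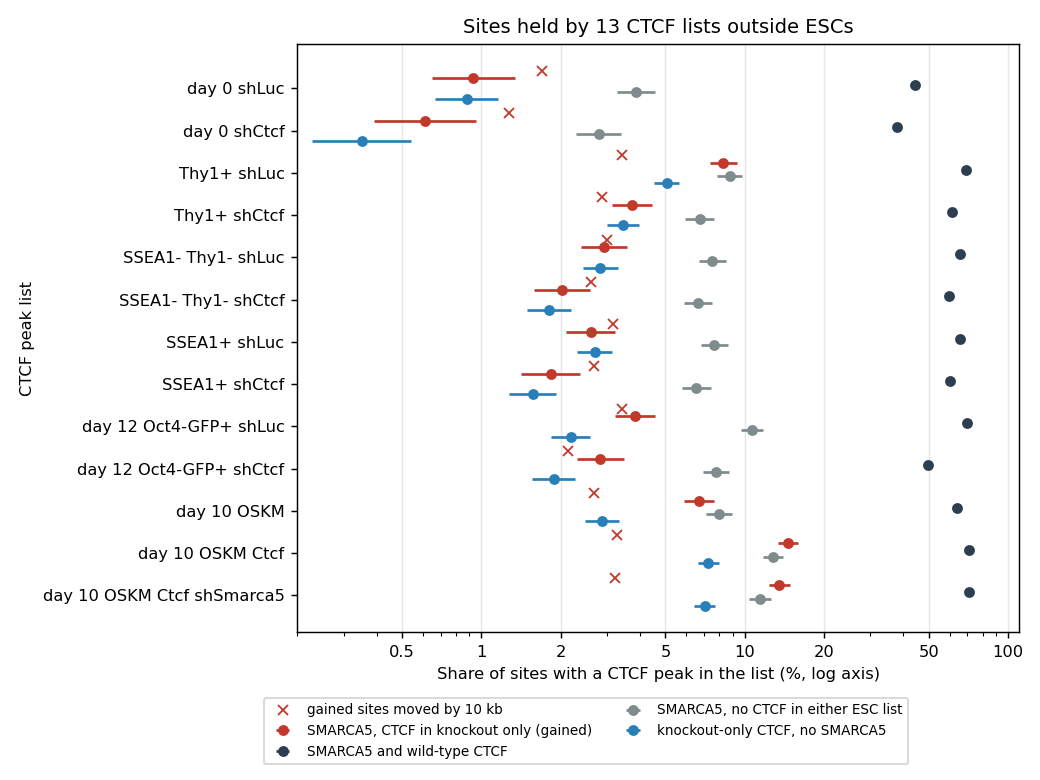
Share of sites in each class (%, log axis) that overlap a peak of each of the 13 CTCF lists outside ESCs, with 95% Wilson intervals, and the share at gained positions moved by 10 kb (crosses). Gained sites reach 14.6% in the day 10 OSKM Ctcf list and lie below their moved positions in both day 0 lists, while wild-type CTCF sites stand at 37.9% or more in every list. Moved positions, unlike gained sites, may fall on wild-type CTCF peaks.

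In the fibroblasts at day 0, gained sites were at or below the level of moved positions. The day 0 shLuc list held 29 gained sites (0.933%, beside 1.71% at moved positions and 38.5% of all SMARCA5 peaks), and the day 0 shCtcf list held 19 (0.612%, beside 1.27% and 32.8%). The SSEA1- Thy1- lists held 91 with shLuc (2.93%, beside 3.01% moved and 57% of all) and 63 with shCtcf (2.03%, beside 2.61% and 51.9%). The SSEA1+ lists held 81 with shLuc (2.61%, beside 3.15% and 57.4%) and 57 with shCtcf (1.83%, beside 2.69% and 52.5%). In these 6 lists gained sites did not exceed positions 10 kb away. Moved positions could fall on wild-type CTCF peaks, which the rule bars from gained sites. When SMARCA5 peaks without wild-type CTCF were moved by 10 kb, 5.77% met a knockout peak, but only 0.710% one without a wild-type peak. The background is thus not matched to the rule, and whether gained sites exceed a matched one was not tested. SMARCA5 sites with no CTCF were above the gained ones in these 6 lists, with 7.67% in the SSEA1+ shLuc list.

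The remaining lists held shares above the moved positions, with the Thy1+ shLuc and day 10 lists farthest above them. The Thy1+ shLuc list held 258 gained sites (8.30%, 7.38 to 9.33, beside 3.43% moved and 60.8% of all SMARCA5 peaks). The Thy1+ shCtcf list held 116 (3.73%, beside 2.88% and 53.5%). In day 12 Oct4-GFP+ cells, the population nearest to ESCs, the shLuc list held 119 (3.83%, beside 3.41% and 61%) and the shCtcf list 88 (2.83%, beside 2.14% and 43.5%). For that shLuc list the moved value lies inside the interval of the gained share (3.21 to 4.56). SMARCA5 sites with no CTCF in ESCs were at 10.6% (9.65 to 11.7) in the same list. The day 10 lists held 208 with OSKM (6.69%, 5.87 to 7.63, beside 2.69% and 56.1%), 453 with added Ctcf (14.6%, 13.4 to 15.9, beside 3.27% and 63.3%) and 421 with added Ctcf and Smarca5 shRNA (13.5%, 12.4 to 14.8, beside 3.22% and 62.7%).

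Gained sites at gene starts were held by other lists more often than the rest. With a start within 1 kb, 54.9% (51.2 to 58.6; 378 of 688) were in none of the 13 lists, and without one 86.0% (84.5 to 87.3; 2006 of 2333). For SMARCA5 sites with no CTCF the corresponding shares were 73.7% and 77.9%, for those with wild-type CTCF 11.5% and 13.4%, and for knockout-only peaks without SMARCA5 72.8% and 88.6%. In the Thy1+ shLuc list, 20.1% (17.2 to 23.2) of the gained gene-start sites were held, against 5.02% of the rest. SMARCA5 gene-start sites with no CTCF were at 10.9% (9.22 to 12.9) in that list. In the day 10 OSKM list, 15.7% of the gained gene-start sites were held and 4.11% of the rest, and with added Ctcf 33.9% (30.4 to 37.5) and 9.13% (8.03 to 10.4). At positions moved by 10 kb those last shares were 2.76% and 3.45%, so the gained sites away from gene starts also exceeded their surroundings there. In the same list, knockout-only peaks without SMARCA5 were at 20.3% and 6.78%, and SMARCA5 sites with no CTCF at 16.2% and 11.1%. A higher share at gene starts was thus not particular to gained sites there. In the SSEA1- Thy1- shLuc list the gained shares were 3.20% and 2.91%, and in the SSEA1+ shLuc list 2.47% and 2.70%, with no excess at gene starts.

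**Figure D3:**
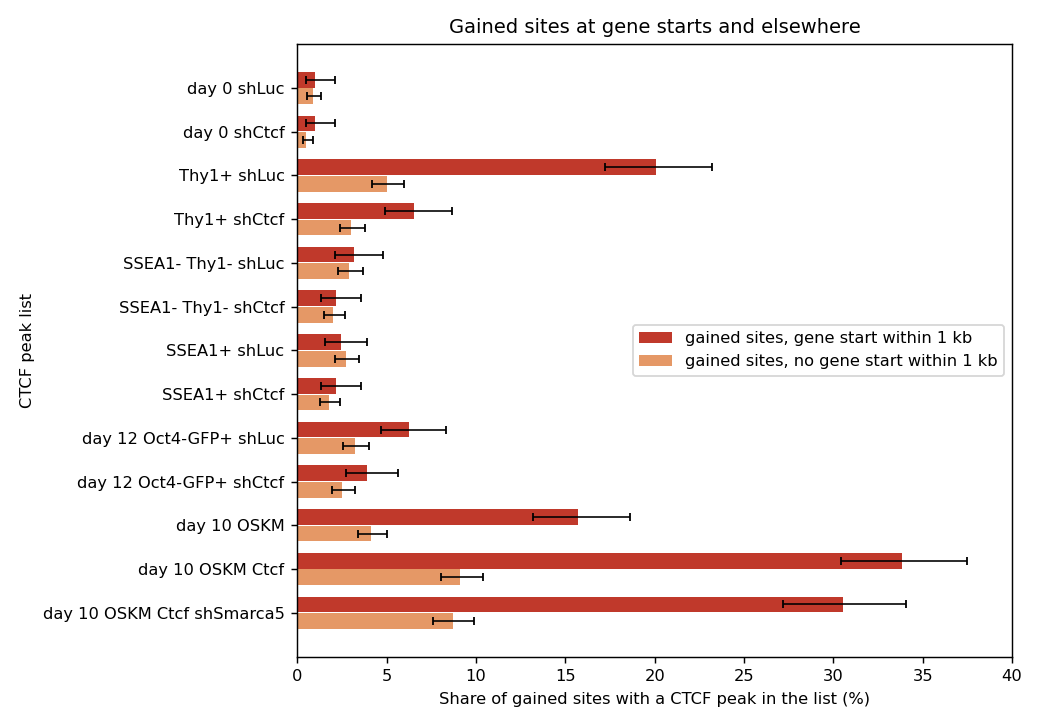
Share of gained sites (%) held by each of 13 CTCF lists, for the 688 sites with a gene start within 1 kb (red) and the 2333 without (orange), with 95% Wilson intervals. The gap is wide in the Thy1+ shLuc and the 3 day 10 lists, and the bars are nearly level in the day 0, SSEA1- Thy1- and SSEA1+ lists.

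With Ctcf added to OSKM, the day 10 list held 453 gained sites in place of 208, a ratio of 2.18, while the whole list went from 43356 to 52252 peaks. Sites with wild-type CTCF were already held at 63.9% with OSKM alone, so their ratio of 1.11 cannot be set against this. Knockout-only CTCF peaks without SMARCA5 went from 163 to 414, a ratio of 2.54. SMARCA5 sites with no CTCF went from 274 to 441, a ratio of 1.61. The rise is thus not particular to gained sites. Among sites not held with OSKM, 251 of 2899 gained sites (8.66%, 7.69 to 9.74) were held with added Ctcf, against 20.5% of those with wild-type CTCF. The share was 5.72% (4.96 to 6.58) for SMARCA5 sites with no CTCF and 4.55% (4.03 to 5.13) for knockout-only CTCF peaks without SMARCA5. Of the 208, only 6 were missing from the list with added Ctcf. For gained sites the ratio was 2.16 at gene starts (108 to 233) and 2.22 elsewhere (96 to 213). It was 2.07 and 1.40 for SMARCA5 sites with no CTCF, and 2.28 and 2.63 for knockout-only peaks without SMARCA5. No test of these shares was possible with 1 list a group.

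An shRNA against Smarca5 left most of these peaks in the list. Of the 453 gained sites held with added Ctcf, 413 (91.2%, 88.2 to 93.4) were also held with the Smarca5 shRNA, and 8 were held only with it. Of the 251 seen only after Ctcf was added, 221 (88.0%, 83.5 to 91.5) were kept. SMARCA5 sites with wild-type CTCF were kept at 99.3%, those with no CTCF at 83.7% and knockout-only peaks without SMARCA5 at 94.7%. The number of gained sites was therefore slightly lower with the Smarca5 shRNA in these cells, where in ESCs the sites are by definition those listed with the knockout. The shRNA list rests on 1 sample, and its level of Smarca5 could not be checked.

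With an shRNA against Ctcf, gained sites were kept less often than SMARCA5 sites with wild-type CTCF in each of 5 populations. At day 0, 8 of 29 gained sites (27.6%, 14.7 to 45.7) of the shLuc list were in the shCtcf list, against 80.5% of the wild-type CTCF sites. In Thy1+ cells it was 98 of 258 (38.0%, 32.3 to 44.0) against 85.8%. In SSEA1- Thy1- cells it was 47 of 91 (51.6%, 41.5 to 61.6) against 88.3%, and in SSEA1+ cells 42 of 81 (51.9%, 41.1 to 62.4) against 89.1%. In day 12 Oct4-GFP+ cells it was 58 of 119 (48.7%, 39.9 to 57.6) against 66.7%. The kept share was lowest at day 0, where few sites were held, and the gap to wild-type CTCF sites was smallest at day 12. In the day 0, SSEA1- Thy1- and SSEA1+ shLuc lists, gained sites did not exceed positions moved by 10 kb. They were held at 0.933% against 1.71%, 2.93% against 3.01% and 2.61% against 3.15%. Kept shares in these populations rest on overlaps no more frequent than at moved positions, which, unlike gained sites, may fall on wild-type CTCF peaks. Whether these overlaps exceed a matched background was not tested. At day 12 the moved value lay inside the interval of the gained share.

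The difference between the 2 kinds of site averaged -38.5 ± 13.4 percentage points (SD, n = 5 populations) and ran from -53.0 to -18.0. It was negative in 5 of 5 populations, and an exact permutation test that flips the sign of each pair (two-sided) gave p = 0.0625 (Benjamini-Hochberg adjusted over 2 tests 0.0625), which is the smallest that 5 pairs can give. The share of all gained sites held was lower with shCtcf than with shLuc in the same 5 populations, by a mean of -1.51 ± 1.73 points (SD, n = 5; range -4.57 to -0.322; exact p 0.0625, adjusted 0.0625). Leaving out the Thy1+ lists, whose labels conflict, brought that mean to -0.75 points and the former to -36.2. Each shCtcf list was also smaller as a whole, with 23600 peaks against 28838 at day 0 and 35803 against 53043 at day 12. Gained positions moved by 10 kb were held less with shCtcf in every population as well. They went from 1.71% to 1.27% at day 0, 3.43% to 2.88% in Thy1+ and 3.01% to 2.61% in SSEA1- Thy1- cells. In SSEA1+ cells they went from 3.15% to 2.69%, and at day 12 from 3.41% to 2.14%. The part of this list-wide drop in the gained share was not tested. Gained sites seen only with shCtcf numbered 11, 18, 16, 15 and 30 in the order of populations above. Low kept shares were not confined to gained sites. SMARCA5 sites with no CTCF were kept at 53.6% to 73.7%, above the gained sites in each population, with overlapping intervals at day 12. Knockout-only peaks without SMARCA5 were kept at 16.0% to 61.7%. They were above the gained sites in Thy1+ cells and below them, with overlapping intervals, in every other population.

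**Figure D4:**
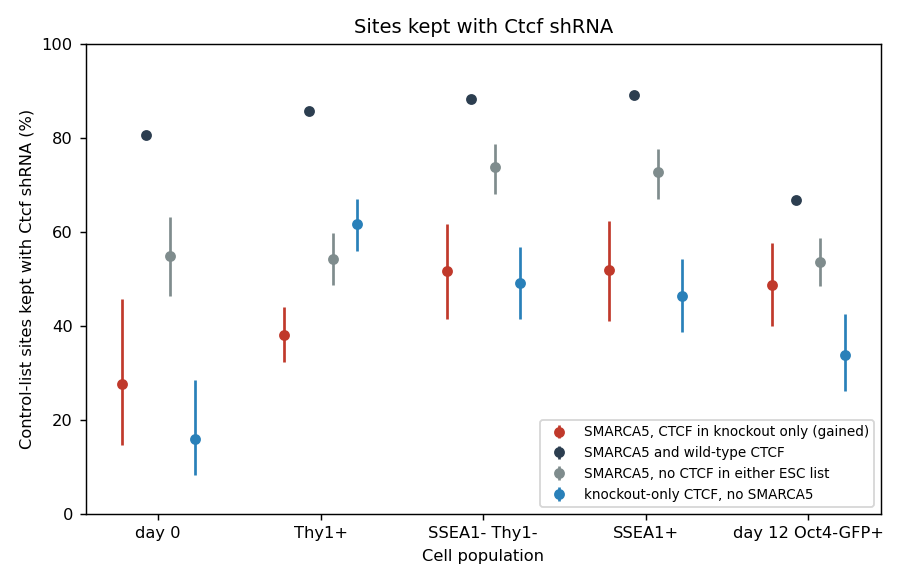
Share (%) of the sites in each shLuc list that were also in the shCtcf list of the same population, by class, with 95% Wilson intervals. Gained sites (red) lie between 27.6% and 51.9%, below the wild-type CTCF sites (dark blue, 66.7% to 89.1%) in every population.

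The 10 gene starts lying within 200 bp of a gained site whose site was in the most other lists cover varied genes. Ywhah, which encodes a 14-3-3 adaptor protein, has its start 9 bp from the centre of a site (chr5:33018608-33019007) that was in all 13 lists and 2.60 kb from the nearest wild-type ESC peak. The site at 4931408C20Rik (chr1:26687214-26687613) was in 12 lists, all but Thy1+ shLuc, and is 136.53 kb from the nearest wild-type peak. Rcan2, a regulator of calcineurin, and Ltbp1, which holds latent TGF-β in the matrix, had sites in 10 lists each, both on chromosome 17. H3f3c, a gene named for histone H3.3, and Casp8ap2 (FLASH), a factor of histone gene expression, had sites in 8 lists. Spg7, a mitochondrial protease, and Ssrp1, a subunit of the histone chaperone FACT, had sites in 7. Zswim8, a ubiquitin ligase adaptor that acts in microRNA decay, and Adss, an enzyme of purine synthesis, had sites in 6. These sites are thus CTCF peaks in 6 to 13 of the other lists and not in wild-type ESCs.

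Beside Ywhah, 3 other gained sites were in all 13 lists, named here after their values were seen. They lie inside Ecd (chr14:20339897-20340296), a splicing and cell-cycle factor, inside E130018O15Rik (chr5:35379529-35379928) and inside Cald1 (chr6:34759715-34760114), the actin-binding caldesmon of smooth muscle and fibroblasts. They are 7.77, 6.18 and 4.81 kb from the nearest wild-type ESC peak. By where they were held, 282 of the 651 gained sites were in day 10 lists only, 187 in day 0 or sorted lists only and 182 in both. Among sites held by a single list, 45 were in Thy1+ shLuc, 22 in day 10 OSKM Ctcf and 16 in day 12 Oct4-GFP+ shLuc.

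Gained sites were spread thinly over genes. Of 1790 protein-coding genes with a gained site inside their span, 1573 had 1 and 181 had 2, 31 had 3, 3 had 4 and 2 had 5. The 2 with 5 were Rgs3, a brake on G-protein signalling with a span of 143 kb, and Zbtb20, a zinc-finger repressor with a span of 759 kb. None of their 10 sites was in another CTCF list, where 79.0% of all gained sites were in none. In Rgs3 the sites lay 218 bp upstream of the listed start and 6.77, 38.3, 49.3 and 59.7 kb downstream of it, between positions 62619255 and 62679586 of chromosome 4. All 5 were inside the span, which extends upstream of that start. A listed gene start, of this or another gene, lay within 1 kb of 2 of the 5. Genes with 4 were Wdfy3, an autophagy adaptor, Agap1, an Arf GTPase activator, and Etl4. The Agap1 site 162 bp downstream of its start was in the 3 day 10 lists, and the other 3 sites in that gene were in none. Genes with 3, taken by the smallest span, were Smad9 (a mediator of BMP signalling, 46.2 kb), Slc45a4, Cplx2 (a regulator of synaptic vesicle fusion), Rab3gap2 and Ncoa6 (a nuclear receptor coactivator). The Smad9 site 273 bp downstream of the start and the Cplx2 site 568 bp downstream of the start were each in 3 other lists. Of the 3 sites in Slc45a4, 2 were in 6 other lists each.

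Among lists of genes with known roles, a gained site lay within 10 kb of the span of 37 of 208 genes (17.8%), beside 2693 of 21900 protein-coding genes (12.3%). The lists were chosen with results of these data known and hold few genes each, so the counts are descriptions. The pluripotency network had 6 of 30 genes, 4 of which are named. Klf2, a factor of the naive state, had a site 730 bp downstream of its start (chr8:72319593-72319992). Tfcp2l1, a naive-state activator, had one 30.8 kb into its span (chr1:118658540-118658939). Dppa2, an activator of early embryonic genes, and Fgf4, the growth factor that prepares ESCs for differentiation, had sites 3.27 and 7.26 kb outside their spans. None of the 6 sites near this list was in any of the 13 other lists, where 79.0% of all gained sites were in none, so these few sites stand near the overall share.

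Among developmental regulators, the neural list had 4 of 16 genes. None of its 4 sites was in another list, which is near the 79.0% of all gained sites that were in none. Otx2, a factor of the forebrain and of primed pluripotency, had a site 4.48 kb outside its span, 31.4 kb from the nearest wild-type CTCF peak. Lhx2, a forebrain factor, had one 227 bp downstream of its start, and Pax3, a neural crest factor, had one inside its span. In the mesoderm and endoderm list, Gata4, a heart and endoderm factor, had a site inside its span that was in the 3 day 10 lists. The Hox list had 9 of 39 genes, from only 5 sites. Hoxb8 and Hoxb9 share 1 site, and Hoxc5 and Hoxc6 share 1 of the 2 sites in Hoxc6. The site at the start of Hoxd9, printed above and named after its values were seen, was in the 3 day 10 lists. The fibroblast list had 2 of 20, Zeb1 (a repressor of epithelial genes), in no other list, and Fn1 (fibronectin), whose site was in the Thy1+ and day 12 shLuc lists. The imprinted list had 2 of 24, Rtl1 and Impact, in no other list.

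Genes of the machinery itself also had gained sites. Among the ISWI genes, 3 of 13 had one, from 5 sites. Rsf1, a partner of SMARCA5, had 2 sites inside its span, 1 of them in 4 other lists (both Thy1+ and both SSEA1+ lists) and 1 in the day 12 shCtcf list. Pole3 had one 137 bp upstream of its start, printed above and in no other list, and one 3.89 kb beyond its span that was in the Thy1+ shLuc list. Rbbp4, a histone-binding subunit of several complexes, had one 8.66 kb outside its span. Other remodellers had 5 of 17. Smarca4, the ATPase BRG1, had 2 sites outside its span, Smarcc1 and Chd8 had 1 inside, and Chd4, the NuRD ATPase, had 1 that lay 7.27 kb upstream and was in the day 10 lists with added Ctcf, with and without Smarca5 shRNA. The CTCF and cohesin list had 2 of 15, the cohesin loader Nipbl (7.93 kb outside) and the cohesin regulator Pds5b (inside). The histone methylation and Polycomb list had 2 of 18, Suz12 and Kdm2b, both inside. The share of genes ran from 8.33% (imprinted) to 29.4% (other remodellers), on counts of 2 to 9 genes. In addition, hairpins of annotated microRNAs lay in gained sites: Mir8101 on chromosome 11 (site in 3 other lists), Mir203 on chromosome 12 (in none) and Mir1945 on chromosome 16 (in 6).

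Gained sites were found on every chromosome but Y. Their share among SMARCA5 peaks without wild-type CTCF was highest on chromosome 14, at 170 of 286 (59.4%, 53.7 to 65.0), against 47.5% over all. Next were chromosome 8 at 52.9% and chromosome 1 at 52.2%, and the lowest autosome was chromosome 10 at 41.0% (35.9 to 46.2). On chromosome X it was 11 of 38 (28.9%, 17.0 to 44.8). The whole knockout list moved with this: it had 1.14 times as many CTCF peaks as the wild-type list on chromosome 14, 1.01 times on X and between 1.06 and 1.10 times on every other autosome. Knockout-only CTCF peaks without SMARCA5 were also most frequent among knockout peaks on chromosome 14, at 8.89%, and least on X, at 3.79%, leaving out Y with its 22 knockout peaks. The part of this list-wide difference in the gained share was not tested. Of the 170 gained sites on chromosome 14, 140 (82.4%, 75.9 to 87.3) were in none of the 13 other lists, near the 79.0% over all gained sites.

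**Figure D5:**
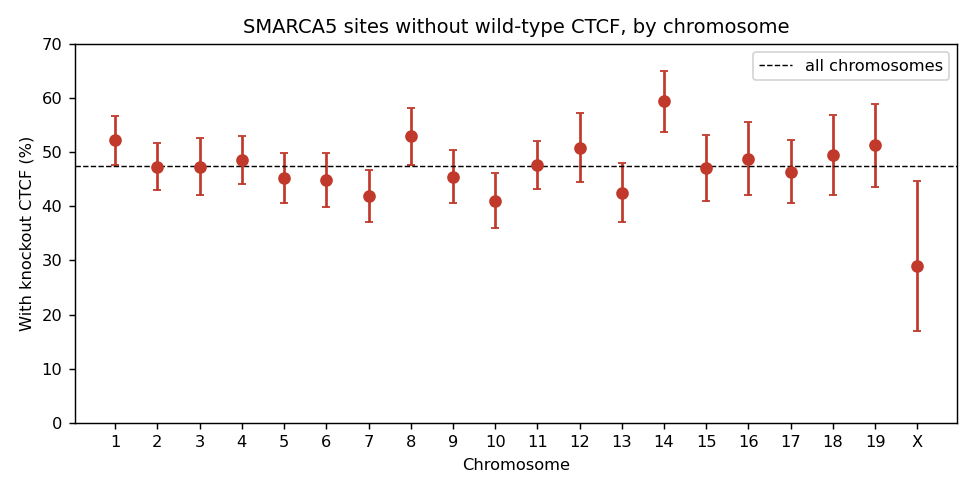
Share (%) of SMARCA5 sites without wild-type CTCF that held knockout CTCF, by chromosome, with 95% Wilson intervals; the dashed line is the share over all chromosomes, 47.5%, and chromosome Y, with 0 gained sites, is left out. Chromosome 14 stands at 59.4% and X at 28.9%.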

How the data were processed

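CTCF and tagged SMARCA5 were measured by ChIP-seq in 31 ChIP samples with 16 peak lists. No list belongs to the 28 input samples. The submitters' processing notes name MACS2, HOMER, deepTools and bedtools besides Bowtie2, Picard, SAMtools, Trim Galore and FastQC, and the build mm10 (GRCm38). How samples were pooled, and which versions and thresholds applied, is not given in the sources used here. The score the authors deposited for each peak is 0 in every line, so peaks could not be ranked. Peaks of the ESC lists have common positions, which makes overlaps there complete or absent, and how they were harmonised is not stated. Samples were grouped by their titles.

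Peaks overlapped when they shared at least 1 bp. Positions were moved by 10 kb in both directions as a background. Moved positions, unlike gained sites, were not kept free of wild-type CTCF peaks. Shares have Wilson 95% intervals. The 5 pairs of lists were compared by an exact permutation test, two-sided, that flips the sign of each pair. Gene spans and promoter windows came from RefSeq tables of GRCm38.p6, and chromosome 18 was not used for gene starts. The tables are not complete.

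The members, gene lists and named genes were chosen with earlier results of these data known. Named genes were up to 4 members of each list, in list order, with a gained site within 10 kb; the 10 genes with the most gained sites inside their span; and the 10 starts within 200 bp of a gained site whose site was in the most other lists. Some genes that the rule names are not reported here. Sequences were printed for 6. No cell type markers were used because the lists measure no RNA. On simulated lists with 3392 planted gained sites, 3392 were recovered. The simulated CTCF lists were exact subsets of the SMARCA5 intervals, so this checks only the overlap count and not peak calling or position offsets. The software was matplotlib 3.10.9, SciPy 1.17.1 and NumPy 2.4.6 under Python 3.11.15.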

Additional observations from a re-analysis of the deposited data

How the results depend on the processing

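The number of gained sites was 3107 with a reciprocal overlap of 50% or an identical interval, 2758 without sites within 1 kb of a wild-type CTCF peak and 3096 without chromosomes X and Y. Of 62 alternatives, 24 moved a value and 0 reversed it. The other 38 left a share within its 95% interval, a count within 1.5 times or a tested difference with its sign and side of the threshold. With 5 pairs the exact permutation test can give no p below 0.0625, and with fewer pairs none that low. For the tested differences the side of the threshold was thus fixed in advance, and only the sign could change. A reciprocal overlap of 50% lowered the share of gained sites held to 0.579% and 0.354% in the day 0 shLuc and shCtcf lists, 7.08% in Thy1+ shLuc, 2.32% and 1.58% in the SSEA1- Thy1- lists, 2.06% and 1.42% in the SSEA1+ lists, 2.74% and 2.16% in the day 12 lists, and 5.28%, 12.2% and 11.4% in the day 10 lists with OSKM, added Ctcf and Smarca5 shRNA. The share in none of the 13 lists was then 82.1%, and 81.1% without the Thy1+ lists, an alternative chosen after seeing the data. With all gene types 72.2% of gained sites were inside a span. Gene starts were near 27.3% within 2.5 kb and 10.8% within 200 bp. The motif share was 73.5% with the 7-letter part alone and, chosen after seeing the data, 19.1% with the looser pattern that starts with CC. List genes with a site numbered 23 within 2.5 kb and 85 within 50 kb, beside 9.81% and 25.1% of protein-coding genes. The moved-position background was 5.06% at 50 kb down, and 5.10% and 4.63% at 100 kb up and down. Leaving out a population in turn kept the mean difference in kept share between -43.7 and -34.9 points, and that in share held between -1.81 and -0.75. Chosen after seeing the data, gene-start sites alone gave -34.3 and other sites -35.8 points of kept share, and -3.43 and -0.98 points of share held (exact permutation p 0.125 and 0.0625). No paired analysis was possible because replicates were pooled into 1 list a group; this concerns pairing by replicate number, and the populations were paired as described. Peak strength could not be used as a threshold, since every score is 0.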
